A study of Moricandia moricandioides and Moricandia arvensis and Moricandia suffruticosa with 11 samples.

Results

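Transcripts of 10 genes of phosphoenolpyruvate (PEP) metabolism were followed in the leaves of 3 *Moricandia* species, in every plant that was sequenced. They are the 4 PEP carboxylases PPC1 to PPC4, the PEP carboxylase kinases PPCK1 and PPCK2, the PEP carboxykinases PCK1 and PCK2, pyruvate orthophosphate dikinase (PPDK) and the PPDK regulatory protein RP1. These 10 of the 33602 gene models were taken by their Arabidopsis gene identifiers, as enzymes and regulators of PEP, with earlier results of these data known. Of the 10, 9 had reads and passed the filter on low counts. PPC3 was listed at 0 in all 11 plants.

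RNA of mature leaves was sequenced from 4 plants of *M. moricandioides* (C3), 4 of *M. arvensis* (line MOR1) and 3 of *M. suffruticosa* to ask how transcript levels in C3–C4 intermediates differ from those of a C3 relative, the last 2 species being labelled as C3–C4. All plants were untreated, raised from sterilised seed in a climate chamber with a 12 h day, and harvested about 2 h into the light period before they became reproductive, so that a single time of day was sampled. Each species was represented by seed of 1 origin, and the only C3 species serves as control in both comparisons. Photosynthesis type and all other differences between these species therefore cannot be told apart, and whole leaves do not show in which cells a transcript was made.

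PEP carboxylase adds bicarbonate to PEP and gives oxaloacetate. In C3 leaves the reaction refills the citric acid cycle and feeds nitrogen assimilation, and in C4 leaves it is the first step of carbon fixation in mesophyll cells. PEP carboxykinase runs in the other direction, from oxaloacetate to PEP and CO2, and is one of the decarboxylating enzymes used by C4 plants. PPDK makes PEP from pyruvate, in C4 leaves in the chloroplasts. Counts per gene do not show in which compartment an enzyme works, so plastid and cytosolic PPDK are not separated here.

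The libraries held 10987959 to 14865167 counted reads, with similar ranges in the 3 species. Levels are given as rpm, reads of a gene per 1000000 counted reads of the library, which are not divided by gene length and so do not rank one gene against another. Fold changes were fitted to the counts of all 11 plants with edgeR, and a difference was called where the p adjusted over 15570 tested transcripts did not exceed 0.01. Plants 13 and 15 of *M. arvensis* lay close together (chi-square per gene 4.88) and so did plants 6 and 7 of *M. suffruticosa* (8.48), whereas all other pairs within a species were at 27.4 or more. Both close pairs differed by more than counting noise and were kept as separate plants. Plant 9 of *M. arvensis* had the lowest scaling factor of all libraries (0.834), and plants 13 and 15 had the highest (1.17 and 1.16). The fitted fold changes use these factors, but the rpm values are not divided by them. Values are listed below in the order of plants 6, 8, 12 and 15 for *M. moricandioides*, 9, 12, 13 and 15 for *M. arvensis* and 6, 7 and 8 for *M. suffruticosa*. Some genes that leaves are known to express, such as the epidermis markers LTP1 and CER1, were listed at 0 in every plant.

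Of the 9 tested genes, 7 were higher in *M. arvensis* than in *M. moricandioides*, where 35% of all tested transcripts were called in either direction. In *M. suffruticosa* 4 were higher, where 18.9% were called in either direction. The 7 were PPC1, PPCK1, PPCK2, PCK1, PCK2, PPDK and RP1, against a background of 18.2% of all tested transcripts called higher in *M. arvensis*. The 4 were PPC4, PPCK1, PCK1 and PCK2, against a background of 10.1% called higher in *M. suffruticosa*. In *M. arvensis* 0 of the 9 were called lower by edgeR, where the background was 16.7%, 0 had an unadjusted p under 0.05 in that direction, DESeq2 called 0 and limma-voom called 1, PPC2. In *M. suffruticosa* 0 were called lower by edgeR against a background of 8.82%, 2 (PPC2 and RP1) had an unadjusted p under 0.05, DESeq2 called 0 and limma-voom called 2. The median log2 fold change of the 9 genes was 1.36 for *M. arvensis*, beside 0.02 over all tested transcripts, and 1.22 for *M. suffruticosa*, beside 0.01. Both comparisons share the *M. moricandioides* plants, so the counts are not independent of each other. PPCK2 passed the filter on low counts only through *M. arvensis*, and PCK2 only through the intermediates. Their calls, and with them these counts and medians, were in part set by the filter. Fewer cells of a type and less RNA per cell cannot be told apart in these whole-leaf libraries.

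**Figure D1:**
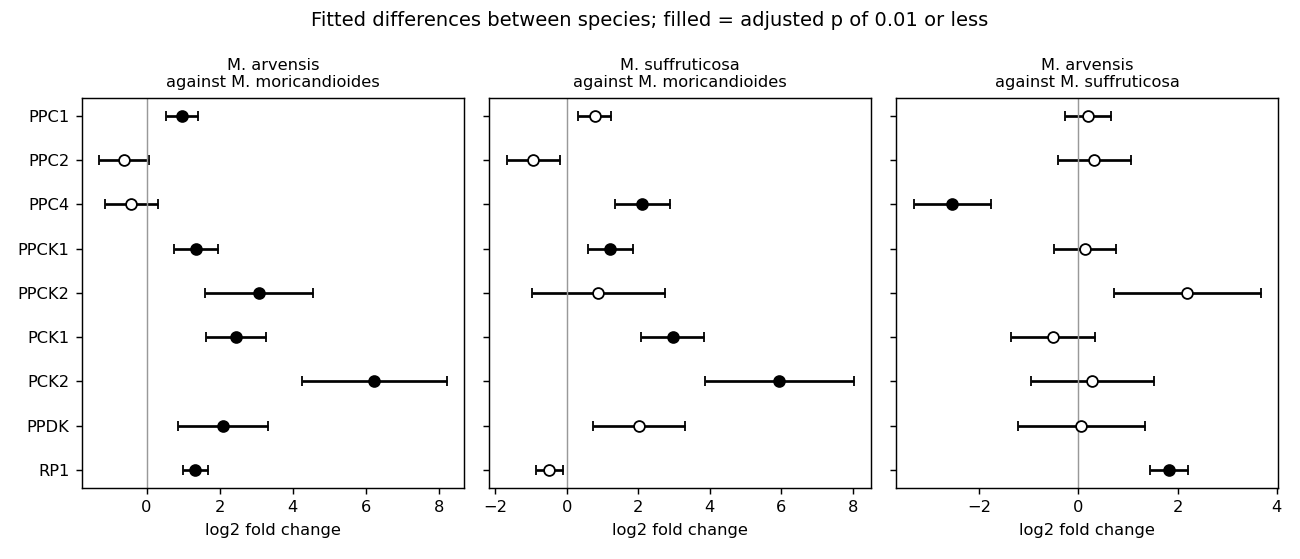
Fitted log2 fold change (x axis) of the 9 tested genes in the 3 comparisons between species, with 95% confidence intervals. Filled points passed the adjusted p of 0.01. The intervals of PPC1, PPCK1, PCK1, PCK2 and PPDK lay right of 0 in both comparisons with *M. moricandioides*. PCK2 passed the filter on low counts only through the intermediates. PPC4 and RP1 were the 2 genes called between the intermediates.

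PCK1 (AT4G37870), the main PEP carboxykinase of Arabidopsis, was at 382, 252, 356 and 209 rpm in the 4 *M. moricandioides* plants. The 4 *M. arvensis* plants had 2168, 2607, 1002 and 1037 rpm. The 3 *M. suffruticosa* plants had 2599, 2530 and 2237 rpm. Every plant of both intermediates was above every plant of *M. moricandioides*. *M. arvensis* fell into plants 9 and 12, at the level of *M. suffruticosa*, and plants 13 and 15, which lay below both groups of high plants. Mean levels were 299.7 ± 82.6 rpm (SD, n = 4), 1703 ± 809.9 (n = 4) and 2455 ± 192 (n = 3). Against *M. moricandioides* the log2 fold change was 2.45 (SE 0.38, adjusted p 0.000263) in *M. arvensis* and 2.96 (SE 0.40, adjusted p 0.000231) in *M. suffruticosa*. Both calls held under each of the 21 alternative settings tried. No difference was called between the intermediates, with an estimate of -0.51 (95% confidence interval -1.35 to 0.34, adjusted p 0.334).

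PCK2 (AT5G65690), the minor isoform, had a total of 1 read in *M. moricandioides*, in plant 12. The 4 *M. arvensis* plants had 3, 38, 39 and 33 reads. The 3 *M. suffruticosa* plants had 26, 23 and 20 reads. All but 1 of the reads came from the intermediates, at a low level in each plant. The ratio of pooled rates to *M. moricandioides* was 128 for *M. arvensis* (95% counting interval 22.4 to 5082) and 97.3 for *M. suffruticosa* (16.9 to 3896), and these wide intervals cover counting error only. Both differences passed the test of edgeR (adjusted p 0.000181 and 0.000676). PCK2 passed the filter on low counts only through the intermediates, so a call of lower was hardly open to it. PCK2 made up at most 0.289% of the PEP carboxykinase reads of any plant, and plant 9 of *M. arvensis* held 0.0108% against 0.0642% to 0.0813% in *M. suffruticosa*. The reads of PCK2 did not follow those of PCK1 within *M. arvensis*, where plant 9 had 3 reads beside 27699 of PCK1 and plant 13 had 39 beside 13447. Each read was counted at its best hit among Arabidopsis sequences, so the split between close copies is uncertain for the PCK, PPC, PPCK and RP families.

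**Figure D2:**
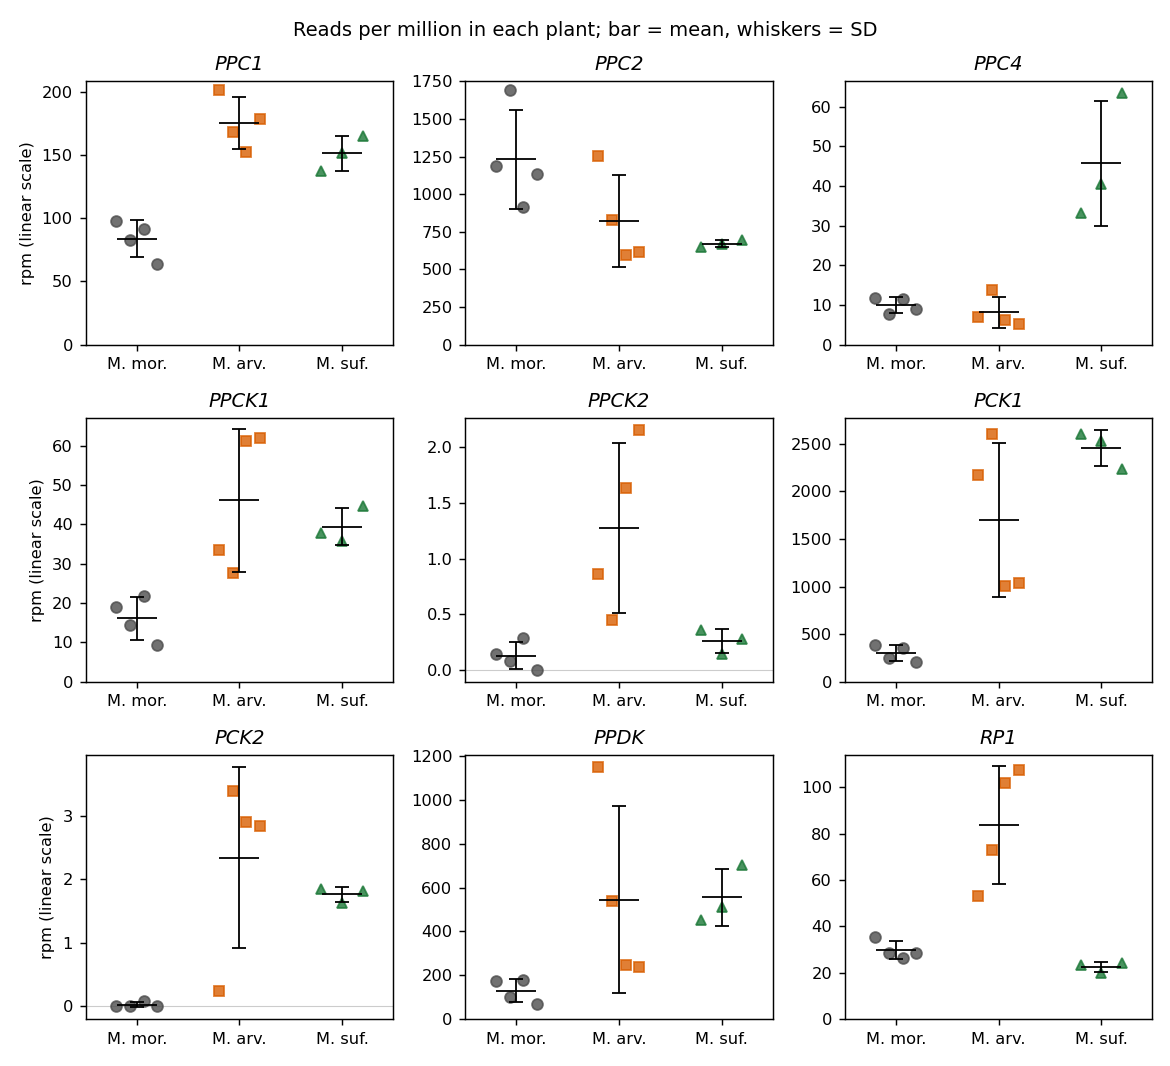
Level in rpm (y axes, linear scale from 0, 1 panel per gene with its own scale) of the 9 genes with reads in each plant of *M. moricandioides* (M. mor.), *M. arvensis* (M. arv.) and *M. suffruticosa* (M. suf.). The bar is the mean and the whiskers the SD. PCK1 was at 209 to 382 rpm in *M. moricandioides* and at 1002 rpm or more in every intermediate plant.

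PPC2 (AT2G42600), a plant-type PEP carboxylase of Arabidopsis leaves, was at 1187, 1693, 917 and 1131 rpm in *M. moricandioides*. *M. arvensis* had 1253, 826, 595 and 616 rpm. *M. suffruticosa* had 649, 668 and 694 rpm. The plants of *M. suffruticosa* were all below those of *M. moricandioides*, while those of *M. arvensis* overlapped with both species, with plant 9 alone inside the range of *M. moricandioides*. The log2 fold change was -0.61 in *M. arvensis* (95% confidence interval -1.29 to 0.06, adjusted p 0.121) and -0.94 in *M. suffruticosa* (-1.68 to -0.19, adjusted p 0.0520), so neither was called. Without plant 9 the value in *M. arvensis* was -1.08 with an adjusted p of 0.00115, and that in *M. suffruticosa* was -0.95 with an adjusted p of 0.00393.

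PPC1 (AT1G53310), the other plant-type enzyme with reads, was at 97.8, 82.7, 91.8 and 63.6 rpm in *M. moricandioides*. *M. arvensis* had 202, 169, 153 and 178 rpm. *M. suffruticosa* had 138, 151 and 165 rpm. All 7 intermediate plants were above the 4 C3 plants. Mean levels were 84.0 ± 14.9 rpm (SD, n = 4), 175 ± 20.5 (n = 4) and 151 ± 13.7 (n = 3). PPC1 was higher in *M. arvensis* by a log2 fold change of 0.97 (SE 0.20, adjusted p 0.00169). In *M. suffruticosa* the value was 0.78 (95% confidence interval 0.32 to 1.25, adjusted p 0.0141), which was not called but passed in 6 of 21 alternative settings. The difference between the intermediates was 0.19 (-0.28 to 0.66, adjusted p 0.520), and the plants of the 2 species overlapped.

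PPC4 (AT1G68750) encodes the bacterial-type PEP carboxylase, which lacks the phosphorylation site of the plant-type enzymes and, in castor bean, joins them in a larger complex. Its level was 11.9, 7.83, 11.5 and 8.95 rpm in *M. moricandioides*. *M. arvensis* had 6.96, 13.9, 6.33 and 5.26 rpm. *M. suffruticosa* had 33.2, 40.4 and 63.5 rpm. The 3 *M. suffruticosa* plants were above the other 8, which overlapped with each other. PPC4 was higher in *M. suffruticosa* than in *M. moricandioides* by a log2 fold change of 2.12 (SE 0.35, adjusted p 0.000792). Between the intermediates it was lower in *M. arvensis* (log2 fold change -2.54, SE 0.36, adjusted p 0.000297). That comparison called 19.3% of all tested transcripts in either direction and 9.92% lower. In *M. arvensis* against *M. moricandioides* the difference was -0.42 (95% confidence interval -1.15 to 0.31, adjusted p 0.318).

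The make-up of the PEP carboxylase reads differed between the species. PPC1 held 6.62 ± 2.02% of them in *M. moricandioides* (range 4.64% to 9.00%), 18.3 ± 3.77% in *M. arvensis* (13.8% to 22.3%) and 17.4 ± 0.565% in *M. suffruticosa* (16.8% to 17.9%). The ranges of the C3 species and of the intermediates did not overlap. The ratio of PPC2 to PPC1 reads was 15.1 ± 4.86, 4.61 ± 1.22 and 4.44 ± 0.254 in the same order of species. PPC4 held 5.21 ± 1.48% in *M. suffruticosa*, compared with 0.807 ± 0.292% in *M. moricandioides* and 0.838 ± 0.390% in *M. arvensis*. Summed over the family, reads came to 1326 ± 326 rpm for *M. moricandioides*, 1006 ± 323 for *M. arvensis* and 868 ± 51.7 for *M. suffruticosa*. These shares were described and not tested, and they compare species within the same genes, not gene levels per length.

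**Figure D3:**
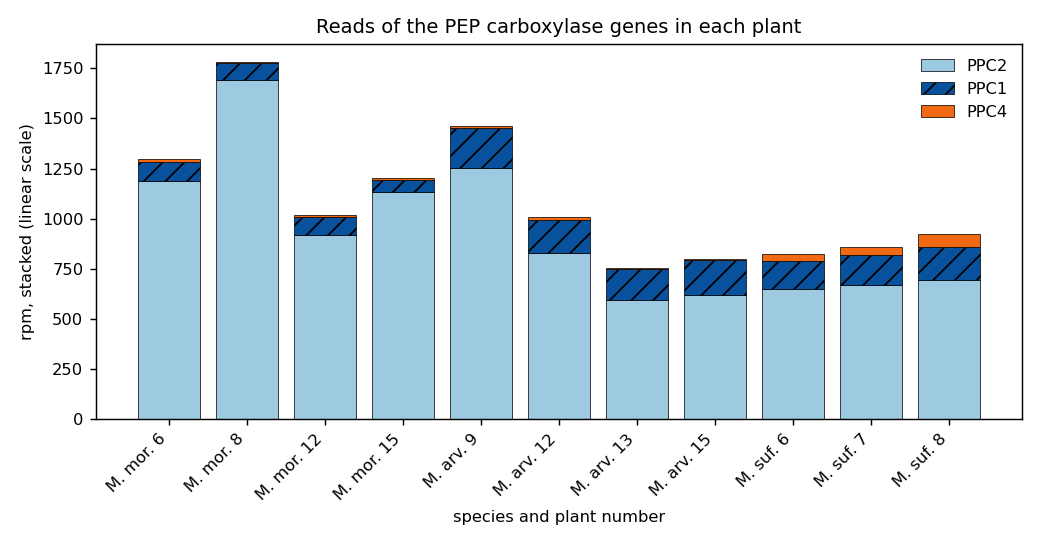
Stacked level in rpm (y axis, linear scale) of PPC2, PPC1 and PPC4 in each of the 11 plants (x axis, species and plant number). PPC1 took 4.64% to 9.00% of the stack in *M. moricandioides* and 13.8% or more in every intermediate plant, and the PPC4 segment was visible mainly in *M. suffruticosa*.

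PPC3 (AT3G14940), the root-associated PEP carboxylase of Arabidopsis, was listed at 0 in all 11 plants and could not be tested. The zero is not evidence of absence in leaves, because 14607 of the 33602 models were listed at 0 in every library, among them leaf genes such as CER1 and LTP1. Reads of related sequences may have been counted under other PEP carboxylases, which was not tested.

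PPCK1 (AT1G08650) phosphorylates PEP carboxylase and makes it less sensitive to inhibition by malate. Its level was 18.9, 14.4, 21.9 and 9.42 rpm in *M. moricandioides*. *M. arvensis* had 33.5, 27.6, 61.3 and 62.1 rpm. *M. suffruticosa* had 37.9, 35.7 and 44.7 rpm. Every intermediate plant was above every C3 plant, and in *M. arvensis* plants 13 and 15 were the high ones, opposite to PCK1. The log2 fold change was 1.36 in *M. arvensis* (SE 0.27, adjusted p 0.00156) and 1.22 in *M. suffruticosa* (SE 0.29, adjusted p 0.0073). The second call sat near the threshold and was lost in 8 of 21 alternative settings, 6 of which left out 1 plant, with a log2 fold change of 1.02 to 1.42 over all plants left out. The difference between the intermediates was 0.14 (95% confidence interval -0.49 to 0.77, adjusted p 0.745).

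PPCK2 (AT3G04530), the second kinase of this family, was close to the limit of detection. The C3 plants had 2, 1, 4 and 0 reads, those of *M. arvensis* had 11, 5, 22 and 25 reads, and those of *M. suffruticosa* had 5, 2 and 3 reads. Every *M. arvensis* plant had more reads than the highest C3 plant. PPCK2 was called higher in *M. arvensis* with a log2 fold change of 3.08 (SE 0.68, adjusted p 0.00261). The ratio of pooled read rates, without TMM scaling, was 10.2 (95% counting interval 4.65 to 26.3). PPCK2 passed the filter on low counts only through *M. arvensis*, where it was high, so a call of lower was hardly open to it. In *M. suffruticosa* the ratio of 2.01 had an interval of 0.692 to 6.23, so a difference was not detectable at this depth (adjusted p 0.452).

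PPDK (AT4G15530) was at 173, 102, 177 and 67.9 rpm in *M. moricandioides*. *M. arvensis* had 1151, 539, 248 and 239 rpm. *M. suffruticosa* had 454, 509 and 702 rpm. All 7 intermediate plants were above all 4 C3 plants, but the *M. arvensis* plants spread widely, with plant 9 far above plants 13 and 15. Mean levels were 129.8 ± 53.8 rpm (SD, n = 4), 544 ± 428 (n = 4) and 555 ± 130.2 (n = 3), so the ratio of means to the C3 species was 4.19 and 4.28. The log2 fold change was 2.09 in *M. arvensis* (95% confidence interval 0.86 to 3.32, adjusted p 0.00877) and 2.03 in *M. suffruticosa* (0.75 to 3.32, adjusted p 0.0195). PPDK was called in the first and not in the second although the estimates nearly coincided, and the difference between the intermediates was 0.06 (-1.22 to 1.34, adjusted p 0.948). The call in *M. arvensis* rested on the setting, since it was lost in 12 of 21 alternatives, and without plant 9 the log2 fold change was 1.18 (adjusted p 0.0272). Without the same plant the value of *M. suffruticosa* was 2.02 and passed (adjusted p 0.00246).

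RP1 (AT4G21210) is a bifunctional regulatory protein that inactivates PPDK by phosphorylation and activates it again by removing the phosphate. Its level was 35.4, 28.6, 26.4 and 28.6 rpm in *M. moricandioides*. *M. arvensis* had 53.0, 72.8, 102 and 107 rpm. *M. suffruticosa* had 23.1, 19.8 and 23.9 rpm. The *M. arvensis* plants were above all others, and the *M. suffruticosa* plants were below those of *M. moricandioides*. RP1 was higher in *M. arvensis* by a log2 fold change of 1.34 (SE 0.16, adjusted p 3.85e-05). In *M. suffruticosa* the value was -0.49 (95% confidence interval -0.86 to -0.11, adjusted p 0.0444), which was not called, while limma-voom called it (-0.61, adjusted p 0.00341). Between the intermediates RP1 was higher in *M. arvensis* by 1.82 (SE 0.18, adjusted p 2.75e-05), where 9.4% of all tested transcripts were called higher.

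The levels of PPDK and of its regulator were not matched across plants. Within *M. arvensis* the order of the plants by PPDK, from plant 9 to 12, 13 and 15, was the reverse of their order by RP1. The ratio of PPDK to RP1 reads was 4.37 ± 1.85 in *M. moricandioides* (range 2.38 to 6.68), 8.44 ± 9.17 in *M. arvensis* (2.22 to 21.7) and 24.9 ± 4.88 in *M. suffruticosa* (19.7 to 29.3). The ratio in *M. suffruticosa* was above all C3 plants and overlapped with *M. arvensis*. RP2 (AT3G01200), the related cytosolic regulator of Arabidopsis, ranged over 9.42 to 12.2 rpm in the C3 plants, 12.4 to 31.9 in those of *M. arvensis* and 4.82 to 7.85 in those of *M. suffruticosa*. Like RP1 it was called between the intermediates (log2 fold change 1.54, adjusted p 0.00138), and it was not called against *M. moricandioides* in either species (0.83, adjusted p 0.0133, and -0.71, adjusted p 0.0607).

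**Figure D4:**
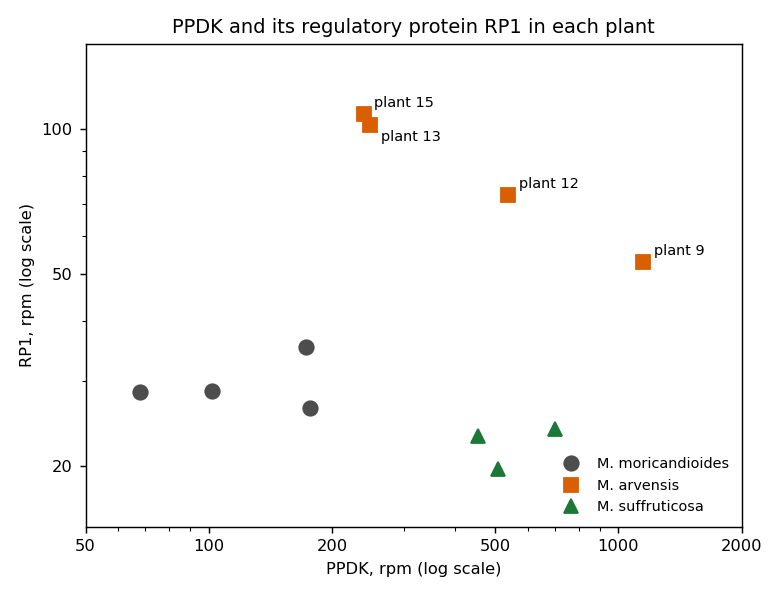
PPDK (x axis, rpm, log scale) against RP1 (y axis, rpm, log scale) in the 11 plants, with the plant numbers of *M. arvensis* printed. PPDK spanned 239 to 1151 rpm and RP1 53.0 to 107 rpm within *M. arvensis*, whose plants lay in reverse order on the axes, while *M. suffruticosa* held high PPDK with RP1 at 19.8 to 23.9 rpm.

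In *M. arvensis* the levels of plants 9 and 12 did not overlap with those of plants 13 and 15 for several of the genes. PPC2, PPC4, PCK1 and PPDK had the greater values in plants 9 and 12, and PPCK1, PPCK2 and RP1 in plants 13 and 15. This division was seen in the rpm values and was not tested. The scaling factors, by which rpm are not divided, differed in the same plants. They were 0.834 and 1.04 in plants 9 and 12, and 1.17 and 1.16 in plants 13 and 15. Which genes or marker sums would divide with these factors applied was not computed. Plants 13 and 15 lay close together over all transcripts (chi-square per gene 4.88). The share of all transcripts divided in this way was not computed, so the division is not shown to be particular to these genes. The summed level of 13 markers of leaf senescence and darkness divided the same plants and was greater in both intermediates than in the C3 species. It was 272 to 477 rpm in *M. moricandioides*, 585 and 549 rpm in *M. arvensis* plants 9 and 12, 921 and 935 rpm in plants 13 and 15, and 583 to 642 rpm in *M. suffruticosa*. The most abundant markers, SAG15 and GLN1;4, went opposite ways in *M. suffruticosa*. Mean GLN1;4 was 302 rpm there and 76.3 rpm in the C3 species (log2 fold change 1.92, adjusted p 0.00422). Mean SAG15 was 88.7 and 147 rpm (-0.80, adjusted p 0.0392), which was not called. Of 8 markers that could be tested, 4 (50%) were called higher in each intermediate. The background was 18.2% of all tested transcripts in *M. arvensis* and 10.1% in *M. suffruticosa*. SEN1, NAP and ASN1, named after their values were seen, were among the 4 in both. Of the other tested markers, PPH was called only in *M. arvensis* and GLN1;4 only in *M. suffruticosa*. SAG15, PAO and SAG29 were called in neither. SEN1 and NAP passed the filter on low counts only through the intermediates. The senescence protease SAG12 had 2 reads in 1 plant and 0 in the others, and SAG13, SAG21, ORE1 and NYE1 were listed at 0. Whether these markers have a part in the values of the PEP genes was not tested.

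The other cell type markers gave the following values. The 12 vascular and bundle sheath markers summed to 827 to 1241 rpm in the C3 plants, 1663 to 2090 rpm in *M. arvensis* and 1114 to 1583 rpm in *M. suffruticosa*. PP2-A1, a phloem lectin, made the difference in the sum, at 63.4 to 194, 910.4 to 1325 and 451 to 487 rpm, since the other 11 markers came to 726 to 1047, 614 to 1048 and 633 to 1096 rpm in the same order. Of the 11 tested, 1 (9.09%) was called higher and 4 (36.4%) lower in *M. arvensis*, and 2 (18.2%) were called higher in *M. suffruticosa*. The 4 were SULTR2;2, IRX3, XCP1 and XCP2, named after their values were seen. For this list and those below, the background in *M. arvensis* was 18.2% of all tested transcripts called higher and 16.7% lower. In *M. suffruticosa* it was 10.1% and 8.82%. PP2-A1 rose by 2.92 (adjusted p 3.1e-05) and 1.74 (adjusted p 0.00206) on the log2 scale, and SWEET12 was listed at 0. The 8 guard cell markers summed to 54.6 to 84.9, 63.1 to 108 and 76.6 to 84.4 rpm in the same order, with KAT1 and TGG1 at 0, and 3 of 6 tested were called higher and 1 lower in *M. arvensis*. The 8 epidermis and trichome markers summed to 229 to 314, 166 to 242 and 334 to 366 rpm, and 1 of 3 tested, PDF2, was lower in *M. arvensis*. The 5 markers of dividing cells summed to at most 7.83 rpm in any plant, with CDKB2;1 and CDKB1;1 at 0.

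Genes that make or use PEP, pyruvate, oxaloacetate and malate were called in both directions, at shares near those of all tested transcripts in *M. arvensis*. Of 37 such genes 29 were tested. In *M. arvensis* 6 (20.7%) were called higher and 6 (20.7%) lower, beside 18.2% and 16.7% of all tested transcripts, with a median log2 fold change of -0.16. In *M. suffruticosa* 4 (13.8%) were called higher and 5 (17.2%) lower, beside 10.1% and 8.82%, with a median of 0.03. Next to the substrates of PEP carboxylase, cMDH1, the cytosolic malate dehydrogenase that reduces oxaloacetate to malate, was higher in both (0.72, adjusted p 0.00762, and 1.14, adjusted p 0.00124). NADP-MDH, which makes malate in chloroplasts in the light, had the same estimate of 0.72 in both and was called in neither (adjusted p 0.0175 and 0.0338). The mitochondrial mMDH1 was not called (-0.34, adjusted p 0.0967, and 0.31, adjusted p 0.176). NADP-ME2, a cytosolic malic enzyme that gives pyruvate and CO2, was higher in *M. arvensis* (1.12, adjusted p 0.00141) and was at 0.39 (adjusted p 0.229) in *M. suffruticosa*. Like PPCK1 and RP1, it was highest in *M. arvensis* plants 13 and 15, at 673 and 691 rpm, compared with 267 and 414 rpm in plants 9 and 12.

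In plastids the reaction of PPDK is pulled forward by a pyrophosphatase and an adenylate kinase, which remove its products. AMK2, the adenylate kinase, was higher in *M. arvensis* (0.90, adjusted p 0.00252), was at -0.11 (adjusted p 0.729) in *M. suffruticosa* and differed between the intermediates (1.00, adjusted p 0.00406). PPA6, the pyrophosphatase, was not called in either (-0.25, adjusted p 0.403, and 0.03, adjusted p 0.935). BASS2, the pyruvate importer of the chloroplast envelope, was not called either (-0.16, adjusted p 0.388, and 0.01, adjusted p 0.969). LOS2, the cytosolic enolase that makes PEP in glycolysis, was lower in *M. arvensis* (-0.80, adjusted p 0.00166) and at -0.17 (adjusted p 0.493) in *M. suffruticosa*. CUE1, the PEP/phosphate translocator of the chloroplast envelope and named after its values were seen, was at 104 to 112 rpm in *M. suffruticosa*, 27.8 to 47.7 rpm in *M. arvensis* and 37.9 to 56.7 rpm in *M. moricandioides*. It was higher in *M. suffruticosa* (1.10, adjusted p 0.000382) and not called in *M. arvensis* (-0.39, adjusted p 0.0486).

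The glyoxylate cycle supplies PEP carboxykinase with oxaloacetate in germinating oilseeds. Isocitrate lyase (ICL), an enzyme of this cycle, had at most 1 read in any plant. Malate synthase (MLS), also named after its values were seen, had 72 reads over the 4 C3 plants and 2 reads in each intermediate species. It was called lower in both (adjusted p 0.000483 and 0.00214). MLS passed the filter on low counts only through the C3 plants, so a call of higher was not open to it.

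The genes most like 5 of the members across the plants were listed from 9077 transcripts with a mean of at least 10 rpm, by Pearson's r of log2(rpm + 1) over the 11 plants. For PCK1 they were AT1G01490, annotated as a heavy metal transport/detoxification protein (r 0.979), and the Fe superoxide dismutase AT4G25100 (0.963). For PPDK they were AT1G08820, a VAMP-associated protein (0.939), and the DegP protease AT3G27925 (0.933). For RP1 they were AT4G36400, an FAD-linked oxidase (0.986), and AT1G72710, a casein kinase 1-like protein (0.978). For PPC1 they were the ADR1-like AT4G33300 (0.970) and the protein kinase AT1G07870 (0.967), and for PPC2 AT1G42970, the GAPDH B subunit of the Calvin cycle, and AT2G21280 (both 0.932). The points share the species difference, so these values describe the plants only.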

How the data were processed

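Per the labels and the study's methods, the authors sequenced 1 library per plant as single-end 100-bp reads, aligned them with BLAT (version not given in the sources used here) in protein space to a minimal TAIR10 coding set, and counted the best hit of each read. Of the deposited data, 1 table holds raw counts per gene, and the authors' rpm, which are those counts per 1000000 counted reads. A deposited table of read totals and one of the authors' fold changes and p-values were not used.

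Counts were analysed with edgeR 4.0.16 in R 4.3.3. Transcripts passed filterByExpr with a minimum count of 10, libraries were scaled by TMM, a model with 1 coefficient for each species was fitted to the 11 libraries together, and species were compared by the quasi-likelihood F test with Benjamini–Hochberg adjustment over 15570 transcripts, two-sided. Depth was 10987959 to 14865167 counted reads. The labels call each library a separate plant, and the p-values measure the spread between plants. Intervals on ratios and shares of reads are exact binomial and cover counting error only. Values by plant were computed in Python 3.11.15 with pandas 2.3.3, numpy 2.4.6 and scipy 1.17.1, and drawn with matplotlib 3.10.9. The fit was tested on simulated counts. For *M. arvensis* and *M. suffruticosa* it recovered 2% and 0% of 1.5-fold changes, 32% and 22% of 2-fold changes, and 100% and 98% of 4-fold changes. Differences of 2-fold or less were thus often not called. Larger ones could be missed too, since the 4.09-fold difference of PPDK in *M. suffruticosa* (SE 0.59 on the log2 scale) was not called. Whether the percentages hold for genes that vary as widely between plants as PPDK was not tested.

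The genes, the marker lists and the list of neighbouring genes were chosen with earlier results of these data known. All 10 genes are given in every plant, together with RP2 and the 8 neighbours with the highest mean rpm. Up to 2 markers per list, all tested markers of leaf senescence and darkness, and the 2 most similar genes for 5 members are also named. Others are named as chosen after their values were seen. Alternatives were RLE factors, library totals, 2 other filters, DESeq2 1.42.0, limma-voom (limma 3.58.1), a replicate block, the close libraries summed, fits of 2 species, a threshold of 0.05 and each plant left out.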

Additional observations from a re-analysis of the deposited data

Results flagged for a closer look

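PCK2 in *M. moricandioides* plant 12 was at 0.0724 rpm, which is 1 read, while the other 3 plants of that species had 0 reads. It stood apart from the rest of its group by Dixon's test, which at the 95% level also marks some groups by chance and here turns on a single read.

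PPC4 and RP1 differed between the intermediates by the test of that difference itself. PPC4 was lower in *M. arvensis* than in *M. suffruticosa* by a log2 fold change of -2.54 (adjusted p 0.000297), and RP1 was higher in *M. arvensis* by 1.82 (adjusted p 2.75e-05).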

How the results depend on the processing

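Of 549 values of single genes under 21 alternative settings, 486 kept their direction and their side of the threshold, 30 were no longer past it, 21 newly passed it and 12 turned direction. PCK1 was called higher in both intermediates throughout.

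The number of genes called in *M. arvensis*, 7, was 4 (of 7 tested) when only the 2 species were fitted and 6 with any 1 plant left out. All 7 were higher, but without *M. arvensis* plant 9 the 6 were 5 of these genes and PPC2, called lower (-1.08, adjusted p 0.00115), while PPDK was not called (1.18, adjusted p 0.0272) and PPCK2 was not tested. PPCK2 was also not tested without *M. arvensis* plant 13 or 15. The number in *M. suffruticosa*, 4, was 8 with limma-voom, 7 when only the 2 species were fitted, 7 at a threshold of 0.05, and 3 to 7 with 1 plant left out, the 7 being without *M. arvensis* plant 9. Between the intermediates the number, 2, was 4 with limma-voom. Plant numbers shared between species were not treated as pairs. The deviations of same-numbered plants had correlations of 0.00766 to 0.0303. These pairs are few and were not set beside differently numbered ones, so they cannot exclude a shared batch. With the replicate block, which adds a term for each plant number, 1 gene was called in *M. arvensis*, 1 in *M. suffruticosa* and 0 between the intermediates. Numbers 7, 9 and 13 occur in 1 library each, so those plants no longer entered the comparisons. Few degrees of freedom were left, and the smaller number of calls is no test of a batch.

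The differences between the intermediates that turned direction were all uncalled. For PPDK the log2 fold change was -0.029 with library totals, -0.96 with limma-voom, -0.68 with the replicate block, and between -0.84 and 0.36 with 1 plant left out, being -0.84 without *M. arvensis* plant 9 and -0.08 and -0.04 without *M. suffruticosa* plants 6 and 7. For PPC2 it was -0.17 with limma-voom and -0.13 without *M. arvensis* plant 9 (up to 0.51 with other plants left out), and for PPC1 -0.025 without that plant (up to 0.31). For PPCK1 it was -0.094 with the replicate block and -0.039 with the close libraries summed, and for PCK2 -1.69 with the block. Except where a plant was left out or fewer libraries were fitted, the cause was not tested. Library totals moved the median over all transcripts by 0.13 for *M. arvensis* and 0.07 for *M. suffruticosa*. Depth limits PPCK2 and PCK2 in *M. moricandioides*, with 7 and 1 reads in all.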
